A study of Rattus norvegicus with 12 samples.

Results

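The hepatic nuclear receptors described here are 10 genes, Nr1h3, Nr1h4, Nr0b2, Nr1i2, Nr1i3, Ppara, Hnf4a, Rxra, Esrra and Nr5a2. They were found by matching their symbols to the probe sets that the array annotation gives to a single gene. Each symbol matched exactly 1 probe set, so the receptors are 10 of 15310 probe sets, which stand for 14506 genes. The livers came from male diet-induced obese Sprague-Dawley rats, a stock that becomes obese on rich food, and their RNA was hybridised to Affymetrix Rat Gene 1.0 ST arrays, with 4 rats on each of 3 diets and 1 array per rat. The dairy rats received complete dairy protein as skim milk powder. The leucine rats received casein at 7.1% of energy with added leucine, a branched-chain amino acid, at 2.9% of energy. The casein rats, the control, received casein alone. All 3 groups started their diet at 12 weeks of age, ate freely for 8 weeks a high fat, high sucrose food of 4.6 kcal/g with 10% of energy as protein, and were 20 weeks old at death. No lean rat and no rat on plain chow was among the 12, so each comparison is between these whole diets in obese animals. All values are the deposited log2 signals, on which a step of 1 is a 2-fold change.

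Nuclear receptors are transcription factors, many of which are switched by small lipophilic ligands. In liver, FXR (Nr1h4) responds to bile acids, LXR alpha (Nr1h3) to oxysterols, PPAR alpha (Ppara) to fatty acids, and PXR (Nr1i2) and CAR (Nr1i3) to drugs and other foreign compounds, and all of these bind DNA as a dimer with RXR alpha (Rxra). HNF4 alpha (Hnf4a) maintains hepatocyte identity, ERR alpha (Esrra) drives mitochondrial genes, and LRH-1 (Nr5a2) binds DNA alone and drives bile acid synthesis genes. SHP (Nr0b2) has no DNA-binding domain. It is induced by FXR and represses other receptors, LRH-1 among them.

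The livers expressed the 13 hepatocyte markers at a mean log2 signal between 12.29 and 12.96 in every rat. The array medians lay between 4.432 and 4.616 and the spread of log2 signals between 2.075 and 2.333 (SD). Dairy replicate 3 and casein replicate 4 had the narrowest spread, at 2.075 and 2.138. Nothing in the labels says how the rats were housed or when arrays were run, so no batch could be tested.

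No difference between diets was detected in any of the 10 receptor transcripts. In the limma fit over all probe sets with Benjamini-Hochberg adjustment, 0 of 10 passed an adjusted p of 0.05 in dairy against casein, in leucine against casein, in leucine against dairy, or in the F test over all diets. None of the 10 reached an unadjusted p of 0.05 in any of these 4 tests, and no receptor had groups that did not overlap. Calls were rare across the array as well. In dairy minus casein 13 probe sets passed the adjusted threshold (0.0849%), 10.9% had an unadjusted p under 0.05, and 4.27% had groups that did not overlap. In leucine minus casein these shares were 0%, 3.31% and 2.44%, and in leucine minus dairy 0%, 6.95% and 5.09%. The F test called 0.0327% after adjustment and 7.76% before it. With shares of that size, 0 of 10 receptors is close to what the array gives as a whole. When noisier arrays were given less weight, 1182 probe sets passed in dairy minus casein, and 0 of 10 receptors. In that fit dairy replicate 2 counted most, with a weight of 2.83 against 0.732, 0.296 and 1.39 for the other dairy rats. That rat held the lowest dairy value of 6 receptors, so the weighted dairy means of those receptors lean on it. Its part in the 1182 calls was not tested.

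The fitted differences were small for some receptors and imprecise for others. Dairy livers had 3 receptors higher and 7 lower than casein livers, with a median difference of -0.145 against -0.022 over all probe sets and limma adjusted p between 0.532 and 0.995. Leucine livers had 6 higher and 4 lower than casein livers, with a median of 0.14 against -0.029 and an adjusted p of 0.999 throughout. Leucine livers had 7 higher and 3 lower than dairy livers, with a median of 0.261 against -0.011 and adjusted p between 0.731 and 0.972. The receptor medians were not stable, with 1 rat enough to turn each. Dairy minus casein ran from -0.565 with array weights to 0.081 without dairy replicate 2, leucine minus casein from -0.343 without casein replicate 3 to 0.354 without leucine replicate 4, and leucine minus dairy from -0.105 without dairy replicate 2 to 0.552 with array weights. The first 2 comparisons share the casein rats, and each pair of comparisons shares a diet. The RNA is that of whole liver, in which fewer cells of a type and less RNA per cell cannot be told apart.

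**Figure D1:**
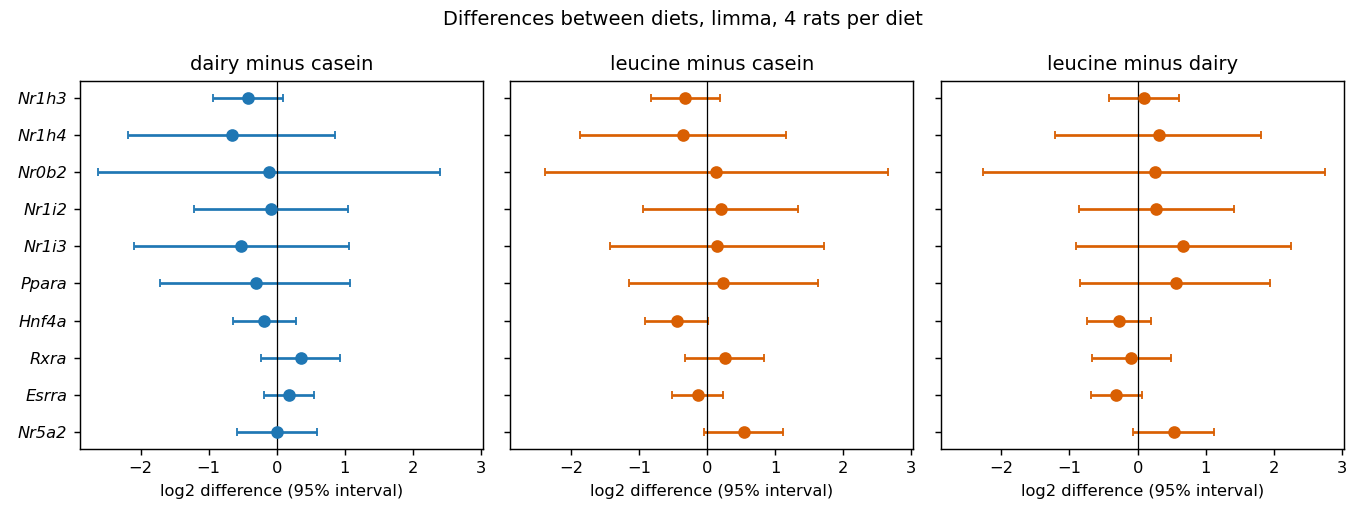
Fitted log2 difference between diets for each receptor (points) with its 95% interval (bars), in 3 panels for dairy minus casein, leucine minus casein and leucine minus dairy, 4 rats per diet. All 30 intervals include 0; those of Nr0b2 are the widest and those of Esrra the narrowest.

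Among the receptors of bile acid control, Nr1h4 had log2 signals of 8.36, 5.86, 7.61 and 6.52 in dairy livers, 8.61, 8.23, 5.89 and 6.84 in leucine livers, and 8.62, 8.42, 6.26 and 7.68 in casein livers. Each diet held rats with high and with low Nr1h4, and the 3 groups overlapped almost fully. The difference was -0.66 ± 0.7 (SE) for dairy minus casein, with a 95% interval of -2.18 to 0.86, and -0.35 ± 0.7 for leucine minus casein. Nr0b2, the repressor that FXR induces, varied more. It had signals of 8.47, 4.85, 7.43 and 5.75 in dairy livers, 9.38, 7.91, 4.44 and 5.76 in leucine livers, and 6.52, 8.41, 4.18 and 7.85 in casein livers. The lowest of the 12 rats, at 4.18, lay below its array's median of 4.441 and may not be above background, so no fold between the extremes is given. The diet means of 6.63, 6.87 and 6.74 for dairy, leucine and casein lay within 0.25 of each other. The interval for dairy minus casein ran from -2.62 to 2.4, so a change of 2-fold or more in either direction lies inside it.

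Nr5a2, the LRH-1 gene, had signals of 8.46, 8.81, 8.05 and 8.92 in dairy livers, 8.72, 8.88, 9.67 and 9.08 in leucine livers, and 8.47, 8.55, 9.13 and 8.06 in casein livers. The leucine rats held the highest single value, but their range crossed both of the others. Leucine minus casein was 0.54 ± 0.27 (SE), a 1.45-fold higher mean, with a limma p of 0.0694 before and 0.999 after adjustment. Leucine minus dairy was 0.53 ± 0.27 with an adjusted p of 0.731, and dairy minus casein was 0.01 ± 0.27.

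Nr0b2 and Nr5a2 are printed here with the 250 bases before their annotated start, since SHP represses LRH-1 and their transcripts are set side by side among the rats later on. The sequences are RefSeq's on GRCr8, written 5′ to 3′ on the strand of the gene. The Nr0b2 window is chr5:151062910-151063159 on the plus strand, and its capitals mark the letters TCAAGG, the core of the extended site bound by LRH-1 and the ERR proteins.
Nr0b2: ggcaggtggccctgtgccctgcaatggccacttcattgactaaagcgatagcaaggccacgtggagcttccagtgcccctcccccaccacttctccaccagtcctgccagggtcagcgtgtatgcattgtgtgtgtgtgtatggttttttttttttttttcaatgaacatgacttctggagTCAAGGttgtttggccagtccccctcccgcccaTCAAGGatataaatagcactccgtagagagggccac
The Nr5a2 window is chr13:50984939-50985188 on the minus strand, and its capitals mark AGGTCA, the hexamer that most nuclear receptor sites are built from.
Nr5a2: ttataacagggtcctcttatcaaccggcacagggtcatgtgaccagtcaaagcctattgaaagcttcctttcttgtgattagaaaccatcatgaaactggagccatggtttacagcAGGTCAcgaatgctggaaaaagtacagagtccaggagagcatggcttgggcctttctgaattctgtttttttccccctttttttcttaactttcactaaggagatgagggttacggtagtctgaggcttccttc
TCAAGG stands 2 times in the Nr0b2 window, 69 and 36 bases before the start. On either strand it is found in 12.6% of 33469 RefSeq rat windows of the same length, and among the 10 windows of 9 receptor genes only in that of Nr0b2. AGGTCA, 134 bases before the Nr5a2 start, is found on either strand in 14.1% of all windows and in no other receptor window. The paired forms, AGGTCA repeated in the same direction with 1 or 4 bases between, or facing its reverse complement with 1 base between, were in none of the 10 windows and in 0.0508%, 0.00299% and 0.0269% of all windows. These are matches of letters and not sites shown to be bound.

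The receptors of foreign compounds also spread widely within each diet. Nr1i2, the PXR gene, had signals of 9.54, 7.92, 9.59 and 9.22 in dairy livers, 10.17, 10.16, 8.25 and 8.8 in leucine livers, and 9.36, 9.65, 7.99 and 9.59 in casein livers. Each diet had 1 rat at or below 8.25 and at least 1 rat above 9.5. The differences were -0.08 ± 0.521 for dairy minus casein, 0.2 ± 0.521 for leucine minus casein and 0.27 ± 0.521 for leucine minus dairy (SE). Nr1i3, the CAR gene, had signals of 6.32, 4.53, 6.63 and 4.96 in dairy livers, 8.1, 6.15, 5.42 and 5.44 in leucine livers, and 6.85, 6.92, 4.2 and 6.56 in casein livers. Casein replicate 3, at 4.2, stood apart from the other casein rats, and leucine replicate 1 held the highest value of all 12. The 4.2 lay below its array's median of 4.441 and may not be above background. Leucine minus dairy was 0.67 ± 0.728 with a 95% interval of -0.91 to 2.25.

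Of the lipid sensors, Ppara had signals of 8.98, 6.01, 8.1 and 7.6 in dairy livers, 9.52, 8.66, 7.28 and 7.44 in leucine livers, and 7.94, 8.95, 6.98 and 8.08 in casein livers. The lowest dairy rat and the highest leucine rat differed 11.4-fold, and the casein rats lay between them. Its differences were -0.31 ± 0.642 for dairy minus casein and 0.24 ± 0.642 for leucine minus casein (SE). Nr1h3, the LXR alpha gene, was steadier, with signals of 9.16, 8.79, 8.29 and 8.9 in dairy livers, 8.82, 9.22, 8.94 and 8.55 in leucine livers, and 9.34, 9.2, 8.65 and 9.61 in casein livers. Its mean was 0.749-fold in dairy against casein, with a log2 difference of -0.42 ± 0.235 (SE), a 95% interval of -0.93 to 0.09 and a limma adjusted p of 0.532. That was the smallest unadjusted p among the receptors for dairy against casein, at 0.102.

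Rxra, the common dimer partner, had signals of 10.23, 9.52, 9.93 and 9.51 in dairy livers, 9.78, 10.01, 9.53 and 9.5 in leucine livers, and 9.6, 9.61, 8.63 and 9.94 in casein livers. Apart from casein replicate 3, every rat lay between 9.5 and 10.23. Dairy minus casein was 0.35 ± 0.267 (SE), the difference of largest size among the 3 receptors with a higher dairy mean. Hnf4a had signals of 10.73, 10.52, 10.49 and 10.68 in dairy livers, 10.38, 10.77, 9.76 and 10.41 in leucine livers, and 10.86, 10.75, 10.38 and 11.15 in casein livers. Leucine minus casein was -0.45 ± 0.214, with an interval of -0.92 to 0.01 and a limma p of 0.0555 before and 0.999 after adjustment, the smallest unadjusted p of any receptor in any comparison. Esrra had signals of 6.59, 6.33, 7.03 and 6.35 in dairy livers, 6.19, 6.43, 6.01 and 6.4 in leucine livers, and 6.37, 6.32, 6.38 and 6.52 in casein livers. Its leucine minus dairy difference was -0.31 ± 0.17, with an interval of -0.68 to 0.06 and an adjusted p of 0.738.

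**Figure D2:**
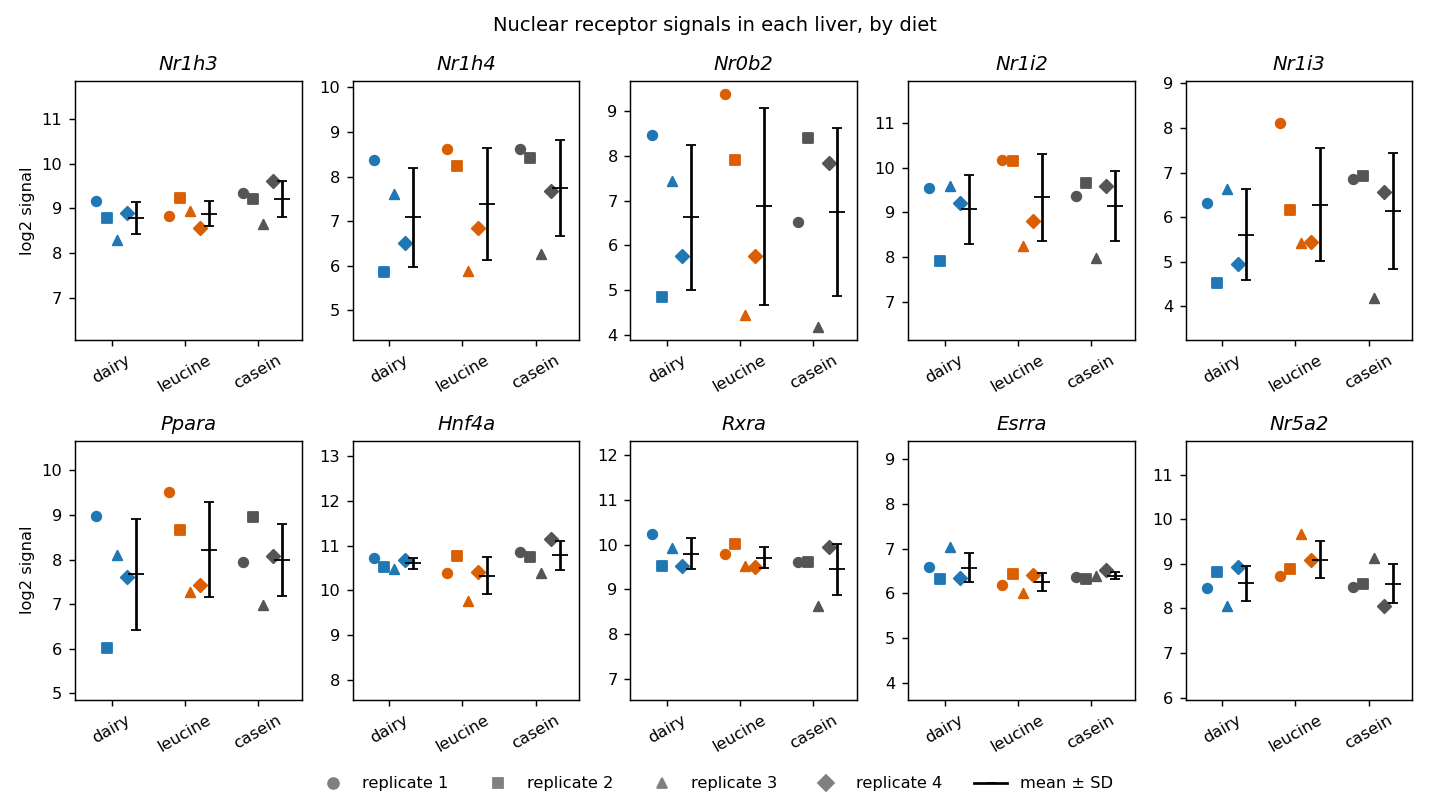
Log2 signal of each receptor in every rat (points) by diet, with dairy, leucine and casein from left to right, marker shapes for the replicate numbers, and black bars for the mean ± SD of 4 rats. The diets overlap for all 10 receptors, and Nr1h4, Nr0b2, Nr1i2, Nr1i3 and Ppara spread most within a diet.

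The genes that these receptors control, and the proteins that act with them, gave 0 calls in any list and any comparison after limma adjustment. That count depended on how the arrays were weighted. With array quality weights, between 0.293 for casein replicate 4 and 2.83 for dairy replicate 2, dairy minus casein had calls for 5 of 21 PXR and CAR targets, 4 of 29 PPAR alpha targets, 5 of 18 ERR alpha targets, 2 of 18 HNF4 alpha targets, 2 of 11 LRH-1 targets, 2 of 5 genes repressed through SHP, 1 of 15 LXR targets and 4 of 29 other nuclear receptors, against 1182 of 15310 probe sets. With the 2 arrays of narrowest spread left out instead, only Cyp2b3 and the ERR alpha target Cs were called in these lists, and without casein replicate 4 alone Cyp2b3 and Idh3a. In the main fit the PXR and CAR target Cyp2b3 and Cs were higher in dairy than in casein livers (0.58 and 0.37). Idh3a was lower (-0.71). Where counts at an unadjusted p under 0.05 are given for a list, they are read against the shares of all probe sets above. The target lists share genes and so are not separate results. Acadm is in the PPAR alpha and ERR alpha lists and was called in both with array weights. Abcg5 is in the LXR and LRH-1 lists. Cyp7a1 is in the LXR, LRH-1 and SHP-repressed lists, and Apoa1 in the HNF4 alpha, LRH-1 and SHP-repressed lists. Of 17 measured coactivator genes, 14 were lower in dairy than in casein livers, 3 of them at an unadjusted p under 0.05, with a median of -0.275. Ppargc1a, which encodes the coactivator PGC-1 alpha, averaged 3.78 in dairy and 4.88 in casein livers, a difference of -1.1 ± 0.329 (SE) with an adjusted p of 0.295. Its dairy mean lay below the lowest array median, 4.432, and may not be above background. In leucine minus dairy 16 of 17 coactivators were higher, 5 at an unadjusted p under 0.05, with a median of 0.248. Kat2b, a histone acetyltransferase, and Crebbp, a scaffold acetyltransferase, had differences of 0.78 ± 0.265 and 0.43 ± 0.157, each with an adjusted p of 0.657. All 8 measured corepressor genes were lower in dairy than in casein livers, none at an unadjusted p under 0.05, with a median of -0.248.

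Of 21 PXR and CAR target genes, which encode cytochromes and conjugating enzymes, 17 were lower in dairy than in casein livers and 20 were higher in leucine than in dairy livers. Their medians were -0.384 and 0.439, and 2 and 5 genes were at an unadjusted p under 0.05 in those directions. The first median ran from -0.77 with array weights to -0.17 without casein replicate 2 and the second from 0.354 to 0.637. Ugt2b1, a glucuronosyltransferase, averaged 6.97 in dairy and 8.9 in casein livers, a difference of -1.94 ± 0.462 with an adjusted p of 0.176. Cyp3a9 averaged 6.73 in leucine and 5.09 in dairy livers, a difference of 1.64 ± 0.475 with an adjusted p of 0.657, and Cyp3a23-3a1 differed by 1.15 ± 0.353 in the same comparison. Members of these cytochrome and transferase families are close in sequence, so their probe sets may read more than 1 transcript.

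Of 29 PPAR alpha targets, 22 were lower in dairy than in casein livers, with a median of -0.21 and 3 at an unadjusted p under 0.05. That median ran from -0.602 with array weights to -0.059 without dairy replicate 2. Ehhadh, a peroxisomal enzyme of fatty acid oxidation, averaged 10.25 in dairy and 11.31 in casein livers, a difference of -1.06 ± 0.284 with an adjusted p of 0.237. Acadm, which starts mitochondrial oxidation of medium-chain fatty acids, differed by -0.67 ± 0.284. Leucine livers were lower than casein livers for 20 of the 29, with a median of -0.066 and none at an unadjusted p under 0.05. Of 15 LXR targets, 12 were lower in dairy than in casein livers, with a median of -0.266 and none at an unadjusted p under 0.05. In leucine minus dairy 9 LXR targets were higher and 6 lower, with 2 of the higher ones at an unadjusted p under 0.05. Abcg5, a sterol exporter, averaged 6.23 in leucine and 5.42 in dairy livers, with a limma adjusted p of 0.708.

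All 5 measured genes that FXR represses through SHP were lower in dairy than in casein livers, with a median of -0.547 and 1 at an unadjusted p under 0.05. Cyp7a1, which catalyses the slowest step from cholesterol to bile acids, averaged 6.6 in dairy, 7.6 in leucine and 8.29 in casein livers, and its dairy minus casein difference of -1.69 had a standard error of 1.15. Lipc, hepatic lipase, differed by -0.74 ± 0.227 with an adjusted p of 0.305. The 11 FXR-induced genes split into 5 higher and 6 lower in dairy than in casein livers, with a median of -0.101 and 1, a lower one, at an unadjusted p under 0.05. All 11 LRH-1 targets were higher in leucine than in dairy livers, 2 of them at an unadjusted p under 0.05, with a median of 0.207. Gls2, a liver glutaminase, differed by 0.85 ± 0.371 there.

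Of 18 HNF4 alpha targets, 15 were lower in dairy than in casein livers, with a median of -0.16 and 2 at an unadjusted p under 0.05. Otc, the urea cycle enzyme that makes citrulline, averaged 9.65 in leucine and 8.49 in dairy livers, a difference of 1.16 ± 0.258 with a limma p of 0.000672 before and 0.604 after adjustment. The 18 ERR alpha targets split into 9 higher and 9 lower in dairy against casein, with 1 and 4 at an unadjusted p under 0.05. Idh3a, a subunit of a citric acid cycle enzyme, differed by -0.71 ± 0.173 with an adjusted p of 0.193. Among 29 other nuclear receptor genes, 15 were higher and 14 lower in dairy than in casein livers, with 1 and 1 at an unadjusted p under 0.05. Nr2f6, an orphan receptor, averaged 7.4 in dairy and 6.5 in casein livers, a difference of 0.9 ± 0.226 with an adjusted p of 0.204. The 13 hepatocyte markers, several of which are targets too, moved alongside these lists, with 11 lower in dairy than in casein livers, a median of -0.26 and 4 at an unadjusted p under 0.05. The part of the markers in the list medians was not tested.

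**Figure D3:**
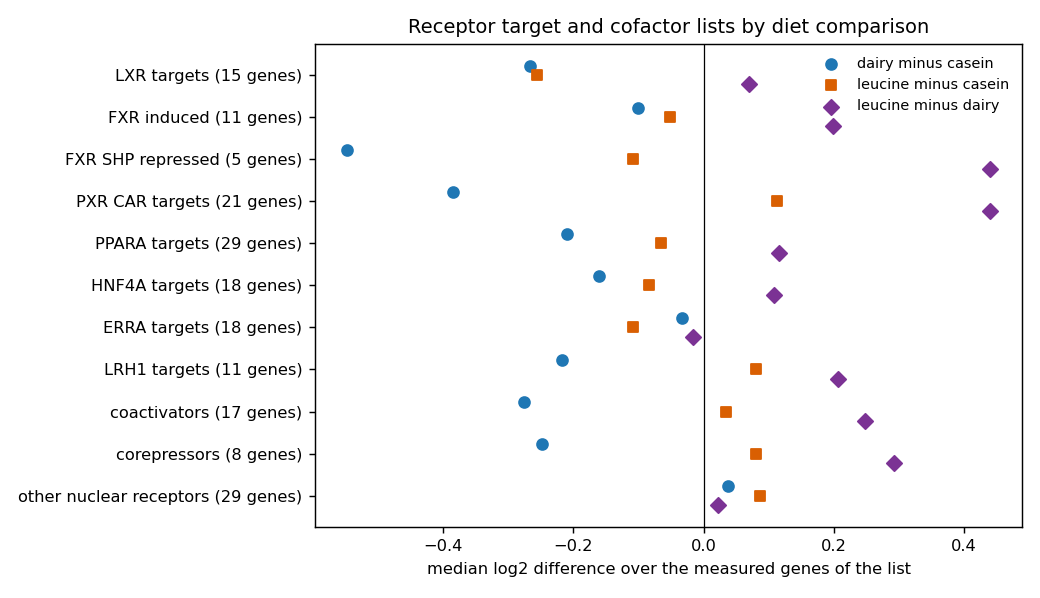
Median log2 difference of each gene list in dairy minus casein, leucine minus casein and leucine minus dairy (circles, squares and diamonds), with a line at 0. The PXR and CAR targets lie at -0.384 in dairy minus casein and at 0.439 in leucine minus dairy.

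Within a diet, 5 receptors were among the most variable transcripts of the array. The pooled within-diet SD of Nr0b2 was 1.92, larger than that of 99.8% of probe sets. Nr1i3 followed with 1.2 (98.6%), Nr1h4 with 1.15 (98.5%), Ppara with 1.05 (98%) and Nr1i2 with 0.85 (96.4%). The others were ordinary, with Nr5a2 at 0.415 (75.6%), Rxra at 0.409 (74.7%), Nr1h3 at 0.352 (64.6%), Hnf4a at 0.312 (54.8%) and Esrra at 0.225 (27.3%). The same rats were low in all 5 variable receptors: dairy replicate 2, leucine replicate 3 and casein replicate 3 held the lowest value of their diet for Nr1h4, Nr0b2, Nr1i2, Nr1i3 and Ppara. Nr5a2 ran the other way at the top, with leucine replicate 3 and casein replicate 3 the highest of their diets.

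To compare rats across diets, each signal was taken as its deviation from the mean of its diet. The deviations of the 5 variable receptors were positively correlated in all 10 pairs, with Pearson's r between 0.85 and 0.93 and Spearman's rho between 0.8 and 0.95 over 12 rats. Permuting rats exactly within diets gave Benjamini-Hochberg adjusted p of at most 0.0068 for r and at most 0.04 for rho, over the 45 pairs of receptors. Without the 2 rats farthest from the median, chosen anew for each pair, r lay between 0.74 and 0.94. Inside each diet of 4 rats all 10 pairs were positive too. Such likeness was not limited to the receptors, as 0.705% to 2% of all other probe sets also had an r of at least 0.85 with one of the 5. With negative r of that size counted too, the shares were 2.12% for Ppara to 5.05% for Nr1h4. Over all 45 pairs, 17 positive and 6 negative ones passed an adjusted p of 0.05, and 5 in all passed without casein replicate 3, when r among the 5 receptors lay between 0.78 and 0.93.

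Nr5a2 was in all 6 of the negative pairs that passed. Its r was -0.82 with Nr0b2, -0.81 with Nr1i2, -0.8 with Nr1i3 and -0.77 with Nr1h4, with adjusted permutation p of 0.019, 0.019, 0.028 and 0.029. Their rho was -0.76, -0.82, -0.78 and -0.71, with adjusted permutation p of 0.046, 0.035, 0.043 and 0.065. On rho the pairs of Nr5a2 with Nr1h4, Rxra (0.057) and Esrra (0.08) did not pass, and 15 of the 23 pairs passed on both. Without the 2 rats farthest from the median of the receptor paired with Nr5a2, r became -0.66 for Nr0b2, -0.74 for Nr1i2, -0.72 for Nr1i3 and -0.55 for Nr1h4. Rxra followed the 5 variable receptors less closely, with r of 0.81 for Nr0b2 and 0.69 for Ppara.

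**Figure D4:**
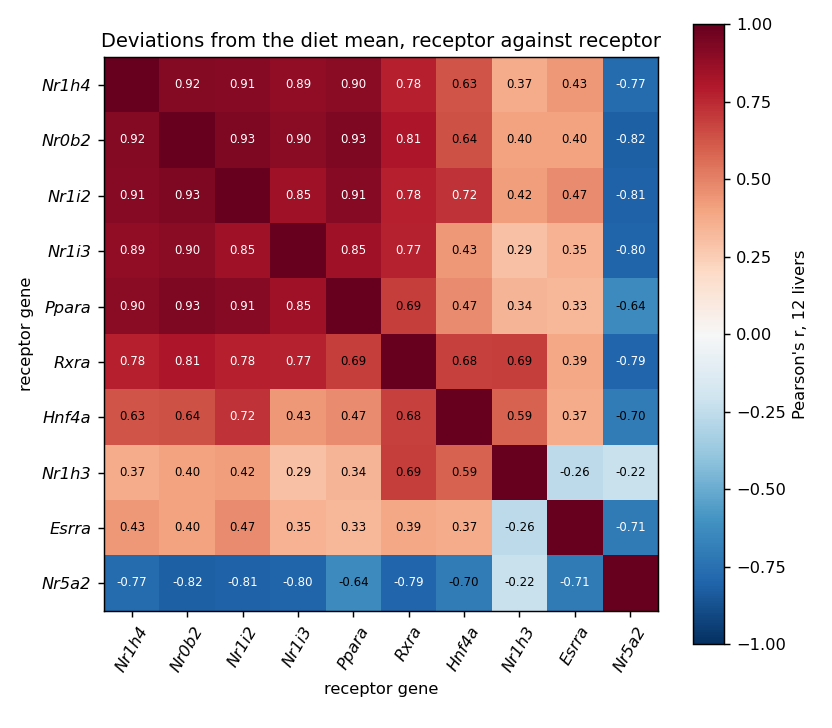
Pearson's r between the receptors' deviations from their diet means, over 12 livers, by colour and printed in each cell. The block of Nr1h4, Nr0b2, Nr1i2, Nr1i3 and Ppara lies between 0.85 and 0.93, and the row of Nr5a2 is negative for all other receptors.

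Neutrophil marker genes, of which 11 of 12 were measured, had a mean log2 signal of 3.82, 5.39, 4.13 and 5.91 in dairy livers, 3.56, 4.14, 5.65 and 5.04 in leucine livers, and 3.48, 3.65, 5.37 and 4.31 in casein livers. The 12 rats left a gap between 4.31 and 5.04, with 7 rats below it and 5 rats above it, and the 5 were dairy replicates 2 and 4, leucine replicates 3 and 4 and casein replicate 3. Nr1h4 lay between 5.86 and 6.84 in the 5 rats and between 7.61 and 8.62 in the 7 rats, and Nr0b2 between 4.18 and 5.76 and between 6.52 and 9.38. Nr5a2 lay between 8.81 and 9.67 in the 5 rats and between 8.05 and 8.88 in the 7 rats. These sets were defined by measured values and are not groups of the study, so no test was made between them.

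Over all 12 rats, the within-diet deviations of the neutrophil marker mean had an r of -0.95 with Nr1h4 (rho -0.93, -0.98 without the 2 farthest rats), -0.9 with Nr1i3 (rho -0.88, -0.88 without them) and -0.88 with Nr0b2 (rho -0.84, -0.87 without them). Their adjusted permutation p was 0.015, 0.027 and 0.033 for r and 0.0087, 0.033 and 0.034 for rho. For Ppara and Nr1i2 r was -0.81 and -0.8 and did not pass (adjusted permutation p 0.055 each), while rho did (0.036 and 0.042). Since the signals leave a gap, the same values are given for the 7 rats below it, as a description with no test. For deviations, the diet means were taken anew over those 7 rats. Dairy replicates 1 and 3, and leucine replicates 1 and 2, were the only rats of their diets there, so their deviations mirror each other. The r of these deviations rest on fewer independent values than the number of rats. Among those 7 rats, such deviations had r between -0.47 and 0.89 for the 10 pairs of variable receptors, 9 of them positive, and between -0.24 and 0.83 for Nr5a2 with the 5. The signals themselves had r between 0.18 and 0.92 for the 10 pairs among the 7 rats, against 0.84 to 0.92 among all 12. For Nr5a2 with the 5, the signals had r between 0.21 and 0.76 among the 7 rats, against -0.64 to -0.4 among all 12. The neutrophil marker mean had an r of -0.93 with Nr1h4 and of -0.16 with Nr0b2 in the deviations of the 7 rats. There its r was -0.61 with Nr1i3, -0.53 with Ppara and 0.43 with Nr1i2, the last against -0.8 over all 12, for which the diet means were those of all rats. The 7 rats were set apart by a marker that follows the receptors. They therefore span a narrower range of the marker mean. The part of that range in the r of the 7 rats, and why some r changed sign, were not tested. Nor was it tested whether the relations hold within such a set, and with 5 rats above the gap no correlation is given for them.

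Of the 11 marker genes 10 were higher in dairy than in casein livers, with a median difference of 0.598 (0.233 without dairy replicate 4 and 1.565 with array weights) and 1 at an unadjusted p under 0.05. Dairy replicate 2, which had the largest weight, was among the rats above the gap. The marker genes themselves were dim, from a mean of 3.29 for S100a8 in casein livers to 6.27 for Ncf1 in dairy livers, and the log2 scale has no zero by which a marker could be called absent.

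**Figure D5:**
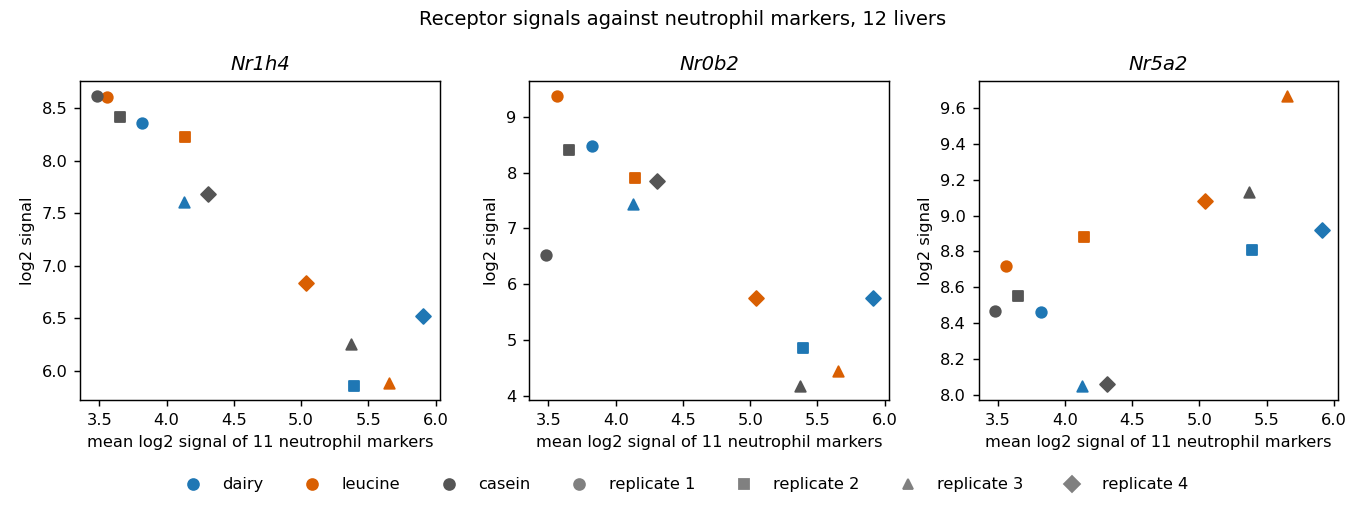
Log2 signal of Nr1h4, Nr0b2 and Nr5a2, a panel each, against the mean log2 signal of 11 neutrophil marker genes, 1 point per rat, with colours for dairy, leucine and casein and shapes for the replicate numbers. The 5 rats at a marker mean of 5.04 or more have the lowest Nr1h4 signals, 5.86 to 6.84.

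Other marker lists also moved with the receptors over the 12 rats, in 90 relations of 10 receptors with 9 lists, the neutrophil ones included, of which 9 passed on r. How many other probe sets followed these marker means as closely was not counted, so the relations cannot be called particular to the receptors. The mean of 17 acute phase genes, which hepatocytes raise in inflammation, was 12.33, 12.81, 11.97 and 12.79 in dairy livers, 11.27, 12.38, 12.61 and 12.63 in leucine livers, and 12.24, 11.23, 12.55 and 12.34 in casein livers. Its within-diet deviations had an r of -0.83 and a rho of -0.95 with Nr1i3, with an adjusted permutation p of 0.0065 and an r of -0.81 without the 2 rats farthest from the median. The mean of 8 endothelial genes, between 6.6 and 7.28 over all rats, had an r of 0.87 and a rho of 0.95 with Nr1h4 (adjusted permutation p 0.0065) and an r of 0.87 without the 2 farthest rats. The lymphocyte mean had an r of -0.88 and a rho of -0.9 with Nr1h4 (adjusted permutation p 0.027 and 0.018, r of -0.78 without the 2 farthest rats), and the Kupffer cell mean an r of -0.78 and a rho of -0.8 with Nr1i3 (0.033 and 0.042, r of -0.67 without them). The lymphocyte mean was dim, from 4.08 to 4.63 over all rats beside array medians of 4.432 to 4.616. Several of its genes lay below these medians and may not be above background. The other relations that passed on r were the endothelial mean with Nr0b2 (r 0.8, rho 0.84, adjusted permutation p 0.027 and 0.018, r of 0.77 without the 2 farthest rats) and the acute phase mean with Ppara (r -0.78, rho -0.87, 0.033 and 0.018, r of -0.7 without them). The hepatocyte markers had r between 0.21 and 0.5 with the 5 variable receptors, none past the threshold. Without the 2 rats farthest from the median of the hepatocyte markers these became 0.85 for Nr1h4, 0.71 for Nr0b2, 0.78 for Nr1i2, 0.68 for Nr1i3 and 0.67 for Ppara. The part of any of these lists in the receptors' spread was not tested.

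Receptor and target transcripts were compared over rats in 9 relations, 1 per receptor with a target list. Ppara had an r of 0.8 with the mean of its targets (rho 0.73, adjusted permutation p 0.035 for r and 0.064 for rho, 0.74 without the 2 farthest rats). Nr0b2 had an r of 0.83 with the genes that FXR represses through SHP (rho 0.83, adjusted p 0.044 for r and 0.064 for rho, 0.69 without the 2 farthest rats), so rats with more Nr0b2 transcript had more, not less, transcript of those genes. None of the 9 passed on rho after adjustment.

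The probe sets most like each receptor were taken over the 12 arrays, among the 7655 probe sets of above-median mean signal, by Pearson's r of the signals. As the highest of so many, they carry no p. Nr1h4 was closest to Prkd3, a protein kinase gene (r 0.981), and Atosa (0.969). Nr1i2 was closest to Usp2, a ubiquitin protease gene (0.961), and Map3k13 (0.94). Nr1i3 was closest to Cyp17a1, a steroid hydroxylase gene (0.963), and Ppargc1b, which encodes the coactivator PGC-1 beta (0.948). Nr0b2 was closest to Id4 (0.936) and Tbc1d2 (0.928), and Ppara to Atxn2 (0.929) and Pxmp4, a peroxisomal membrane gene (0.923). Nr5a2 was closest to Pawr (0.964) and Bcl10 (0.914). Esrra was closest to Mrpl12, a mitochondrial ribosomal protein gene (0.931), and Thap3 (0.871). Nr1h3 was closest to Rnf5 (0.915) and Slc25a38 (0.907), Rxra to Gamt (0.902) and Eif4ebp2 (0.898), and Hnf4a to Mcm2 (0.865) and Cyp2f4 (0.83).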

How the data were processed

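The table holds log2 probe set signals deposited by the authors, and the submitters' processing notes name Affymetrix Expression Console. Its algorithm, settings and genome build were not given in the sources used here. GEO's platform annotation supplied gene names for the 29214 probe sets: 15310 have 1 symbol and were tested, 323 have several and 13581 are unlisted. Detection calls and scanner files were not used here, so the number of arrays limits the precision.

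Group means were fitted with limma 3.58.1 in R 4.3.3 over 12 arrays (9 residual and 3.448 prior degrees of freedom), with Benjamini-Hochberg adjustment over 15310 probe sets. In data simulated for dairy minus casein with 15310 genes, 45 of 100 genes changed by a log2 size of 1 and 91 of 100 changed by 2 were recovered, with 12 false calls. Correlations used deviations from the diet mean and exact permutation of rats within diets (13824 arrangements). The 2 farthest rats left out of a Pearson's r were farthest from the median of the first receptor of a pair. With marker lists the list set them, and with target lists the receptor, so they can differ between relations.

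The receptors, gene lists and marker lists were chosen with earlier results of these data known. Named genes were all receptors, for other lists genes among the 4 of smallest unadjusted p per comparison, and the 2 probe sets of highest r per receptor. For a gene with several probe sets, the brightest leads. Alternatives were quantile normalization, median centring, array weights, a filter on dim probe sets, other sets of probe sets or arrays, a replicate block and leaving out each rat.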

Additional observations from a re-analysis of the deposited data

Results flagged for a closer look

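Nr1i3 in casein replicate 3 had a log2 signal of 4.2, while the other casein rats lay between 6.56 and 6.92. The 4.2 lay below its array's median of 4.441 and may not be above background. Its gap to the nearest rat was 0.87 of the range of the diet, above Dixon's 95% critical value for 4 samples. This was 1 of 30 groups of 4 rats tested (10 receptors in 3 diets), and chance alone marks about 1 in 20 groups. The same rat held the lowest casein value of 8 of the 10 receptors. Its neutrophil marker mean was 5.37, against 3.48 to 4.31 in the other casein rats, and the part of those markers in the value was not tested.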

How the results depend on the processing

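No receptor passed an adjusted p of 0.05 in any of the 3 comparisons or the F test under any alternative, and the lowest adjusted p was 0.107, for Nr1h4 in dairy minus casein with array weights. The count of all probe sets called in dairy minus casein moved more, between 3 (without casein or dairy replicate 1) and 1182 (array weights), against 13, with 237 without casein replicate 4 and 164 without both arrays of narrowest spread. The F test called 5 and, with array weights, 418. Receptors at an unadjusted p under 0.05 numbered 2 in dairy minus casein and 2 in leucine minus casein with array weights, and 1 in leucine minus casein with quantile normalization. Leaving out each rat gave 0 to 1 in dairy minus casein, 0 to 3 in leucine minus casein, 0 to 1 in leucine minus dairy and 0 to 2 in the F test, with the 3 and the 2 reached without casein replicate 3. Of 30 receptor differences 15 kept their sign throughout. Array weights turned leucine minus casein to -0.391 for Nr0b2, -0.009 for Nr1i2, -0.333 for Nr1i3 and -0.11 for Ppara, and leucine minus dairy to 0.073 for Rxra. Median centring turned Nr5a2 in dairy minus casein to -0.022, and leaving out the 2 arrays of narrowest spread turned Nr1h3 in leucine minus dairy to -0.069. Leaving out each rat, dairy minus casein ran from -0.965 to 0.478 for Nr0b2, from -0.463 to 0.304 for Nr1i2, from -0.157 to 0.198 for Nr5a2 and from -0.751 to 0.24 for Ppara. Leucine minus casein ran from -0.718 to 0.946 for Nr0b2, from -0.849 to 0.148 for Nr1h4, from -0.189 to 0.562 for Nr1i2, from -0.498 to 0.43 for Nr1i3, from -0.191 to 0.562 for Ppara and from -0.011 to 0.426 for Rxra. Leucine minus dairy ran from -0.591 to 1.059 for Nr0b2, from -0.069 to 0.22 for Nr1h3, from -0.103 to 0.808 for Nr1h4, from -0.107 to 0.64 for Nr1i2 and from -0.194 to 0.052 for Rxra. The cause of these turns was not tested.

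Receptor pairs past the threshold numbered 23 to 25 under the other scalings and array sets and 5 to 23 leaving out each rat, with the 5 reached without casein replicate 3. These alternatives, those for list counts and medians, and the correlations among 7 rats were chosen after seeing the data. The p of Nr1h4 with Nr0b2 missed the threshold in 1 of 12 leave-outs (r 0.895, adjusted permutation p 0.0535, without casein replicate 3). That of Nr0b2 with Nr5a2 missed it in 2 (r -0.759 and 0.0921 without casein replicate 3, -0.764 and 0.0506 without leucine replicate 3). That of Nr1h4 with Nr5a2 missed it in 5 (casein replicate 3, dairy replicate 2 and leucine replicates 1, 2 and 3, with r between -0.76 and -0.683 and p up to 0.14). That of the acute phase mean with Nr1i3 missed it in 3 (leucine replicates 1, 3 and 4, with r between -0.816 and -0.728 and p up to 0.179). The 14 alternatives for list medians left the sign of the PXR and CAR, PPAR alpha, LXR, HNF4 alpha, LRH-1, repressed through SHP, coactivator, corepressor and hepatocyte medians in dairy minus casein as it was, while that of the FXR-induced (up to 0.058), ERR alpha (up to 0.054), other receptor (down to -0.062) and acute phase lists (down to -0.018) turned.

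Rats with the same replicate number deviated together above an r of 0.1 in 7 of 12 pairs, and 4 of 12 were closest to their own number, so the numbers were not taken as pairs. With the replicate number as a block, 0 receptors passed the adjusted threshold and 1 had an unadjusted p under 0.05 in leucine minus casein. The signals carry no detection call, so what is limited by dim signal could not be shown.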
